A study of Mus musculus with 32 samples.

Results

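The comparison of 5xFAD with wild-type (WT) hippocampus under vehicle took in 16 of the 32 mice of the study, 8 5xFAD/Veh mice and 8 WT/Veh mice, chosen by the genotype and treatment that the labels of the libraries give. Each group held 4 females and 4 males, all 12 months old. 5xFAD mice carry human transgenes with familial Alzheimer's disease (AD) mutations, expressed under Thy1 regulatory sequences and therefore mainly in neurons, and WT mice were C57BL/6 mice without them. Both groups received the same vehicle, an unconjugated hydroxyl dendrimer injected IP, so no untreated mouse is part of the comparison. All mice were perfused with PBS before the hippocampus was taken for bulk RNA-seq. The other 16 mice of the study, 8 5xFAD/D-45113 and 8 WT/D-45113 mice, received the dendrimer conjugated to an inhibitor of the receptor CSF1R and are used here only for the same contrast of genotype under that treatment.

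Microglia are the resident macrophages of the brain. They derive from yolk sac precursors, depend on signals through CSF1R, and in a healthy brain express a set of homeostatic genes that includes receptors for purines and for fractalkine. Around amyloid plaques they change to a plaque-associated state, in which the lipid-sensing receptor TREM2 and its adaptor TYROBP (DAP12) signal through kinases and phospholipase C gamma 2 to genes of phagocytosis, lysosomal digestion and lipid handling. Interferons, made by infected or stressed cells, act through JAK kinases, STAT2 and IRF9, and raise genes of antiviral defence and of antigen presentation in many cell types. Astrocytes near plaques become reactive, with more intermediate filaments and secreted proteins. Bulk RNA-seq measures all of these cells together, so that more cells of a type and more RNA per cell cannot be told apart in any result below.

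The total count was 16536173 to 30368498 in 5xFAD/Veh mice (median 24019156) and 15444249 to 27921743 in WT/Veh mice (median 19891087.5), and an exact 2-sided permutation of the mice gave p = 0.188 for the difference. Of 54532 genes in the table, 16723 had enough reads to be tested. The filter asked for enough reads in only as many libraries as 1 group holds, so genes near 0 in WT/Veh mice could enter. Counts and medians of lists with such genes are a description. Levels are given as CPM, counts scaled to a common library size after TMM scaling of the library sizes, and CPM values of different genes are not comparable because they are not divided by transcript length. Markers of the hippocampal fields CA1 to CA3 and subiculum summed to 1601 to 2088 CPM (median 1820.0) in 5xFAD/Veh mice, against 1545 to 2279 CPM (median 1902) in WT/Veh mice. Markers of neighbouring structures were more variable. The 20 choroid plexus markers summed to 332 to 1498 CPM (median 593) in 5xFAD/Veh mice, against 347 to 5668 CPM (median 695) in WT/Veh mice, with the highest sum in WT/Veh mouse 3F. The 20 markers of thalamus and habenula summed to 368 to 886 CPM (median 532) in 5xFAD/Veh mice, against 433 to 2127 CPM (median 757) in WT/Veh mice, with the highest in WT/Veh mouse 3M. The 16 markers of striatum and midbrain summed to 808 to 4543 CPM (median 2650.0) in 5xFAD/Veh mice, against 1804 to 7944 CPM (median 4081) in WT/Veh mice, with the highest in WT/Veh mouse 1M. All 20 choroid plexus and all 20 thalamus markers had a negative log2 fold change, with medians of -1.61 and -0.88. Over these 3 region lists 56 genes were tested, of which 0 were called in edgeR, 1 in DESeq2 and 0 in limma voom. Of the 56, 16 had an unadjusted p under 0.05, a larger share than the 1861 of all 16723 genes tested. The lower genes are given below with and without these libraries.

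In 5xFAD/Veh mice 611 genes were higher and 35 were lower than in WT/Veh mice at an adjusted p under 0.05 (edgeR quasi-likelihood test, Benjamini-Hochberg), which is 3.86% of the genes tested. Higher genes made up 3.65% and lower genes 0.209%. Over all genes tested the median log2 fold change was -0.015 after TMM scaling, which sets the bulk of the genes near 0. The changes were large on the higher side, with a median log2 fold change of 1.29 among the 611 genes, and 146 of them were over 2 and 56 over 3. Among the 35 lower genes the median was -0.64. In 364 of the 611 higher genes (59.6%) the lowest 5xFAD/Veh mouse was above the highest WT/Veh mouse, against 2.21% of all genes tested. Of the 35 lower genes, 4 (Fzd2, Kirrel2, Col26a1 and Mfn1) were separated in this way, against 0.0299% of all genes. A positive log2 fold change was found in 47.0% of the genes tested. Protein-coding genes made up 632 of the 646.

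The Thy1 gene, whose regulatory sequences drive the transgenes, was used to check the genotype labels. It had a lowest, median and highest level of 876, 1108 and 1416 CPM in 5xFAD/Veh mice, and of 393, 454 and 529 CPM in WT/Veh mice. All 8 5xFAD/Veh mice lay above all 8 WT/Veh mice (log2 change 1.29, SE 0.15, edgeR adjusted p = 5.3e-08). The mouse gene App, which encodes the amyloid precursor protein, had 1258 to 1927 CPM (median 1550.3) in 5xFAD/Veh mice, against 1203 to 1993 CPM (median 1516) in WT/Veh mice, and the groups overlapped almost completely (log2 fold change -0.017, edgeR adjusted p = 0.984). How reads of the human transgenes were assigned is not given in the sources used here, so the values of mouse App are not levels of the transgenes. Of 23 tested genes of amyloid processing and clearance only Thy1 and Plau passed. Plau encodes urokinase, which activates the protease plasmin, and had 10.2 to 19.4 CPM (median 13.5) in 5xFAD/Veh mice, against 1.13 to 2.61 CPM (median 1.70) in WT/Veh mice (log2 change 2.96, SE 0.28, edgeR adjusted p = 1.25e-09). The amyloid-degrading enzymes and Apoe were not called. Apoe, the main apolipoprotein of the brain, had 1389 to 2589 CPM (median 2313) in 5xFAD/Veh mice, against 1220.5 to 2034 CPM (median 1840.0) in WT/Veh mice (log2 change 0.29, SE 0.16, edgeR adjusted p = 0.531).

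**Figure D1:**
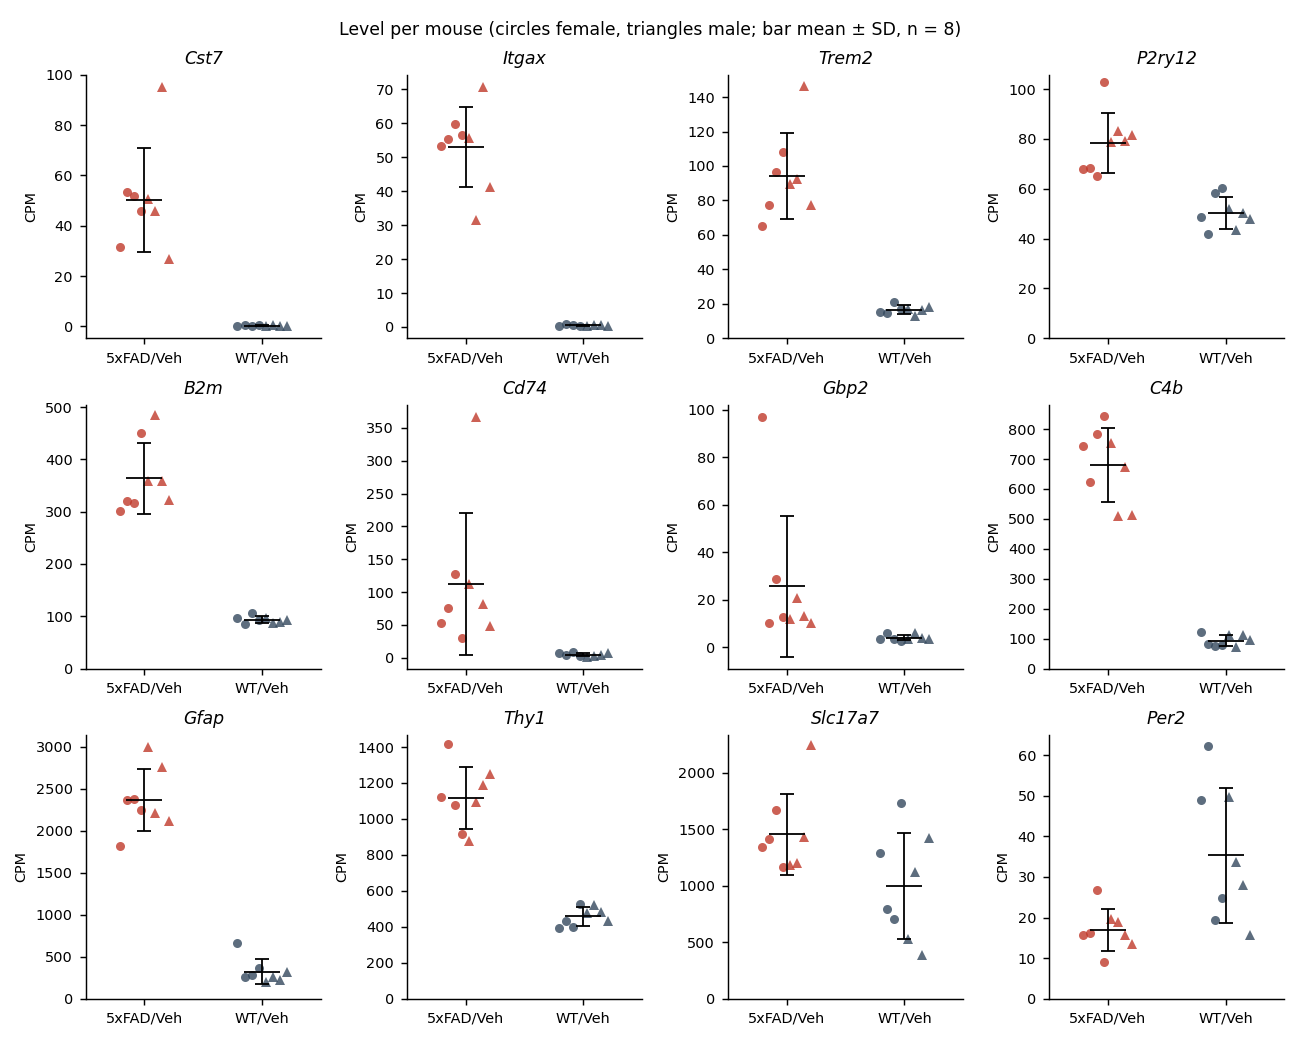
Level of 12 genes in each mouse, in CPM on linear axes, with 5xFAD/Veh at the left and WT/Veh at the right of each panel (circles, females; triangles, males; bars, mean ± SD, n = 8). Cst7, Itgax, Trem2, P2ry12, B2m, Cd74, Gbp2, C4b, Gfap and Thy1 show 8 5xFAD/Veh mice above 8 WT/Veh mice, while Slc17a7 and Per2 overlap.

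The largest changes were in genes of plaque-associated microglia, many of which were close to the limit of detection in WT/Veh mice. Of 31 tested genes of this list 25 were higher and 0 lower, with a median log2 fold change of 2.13, and 19 were separated. Members near 0 in WT/Veh mice could pass the filter through groups where they were high, so these values are a description. Atp6v0d2, a subunit gene of the lysosomal proton pump that is also used by osteoclasts, had 1.99 to 5.65 CPM (median 3.75) in 5xFAD/Veh mice, against 0 to 0.0365 CPM (median 0) in WT/Veh mice. It had 733 reads in the 5xFAD/Veh mice together and 1 read in the WT/Veh mice, a ratio of 620 after scaling with a 95% counting interval of 111 to 24500 (edgeR adjusted p = 7.65e-11), and the fitted log2 fold change of 8.22 depends on the prior count. Cst7, which encodes the cathepsin inhibitor cystatin F, had 26.8 to 95.4 CPM (median 48.3) in 5xFAD/Veh mice, against 0 to 0.730 CPM (median 0.240) in WT/Veh mice, and male 3M stood highest at 95.4 CPM (log2 change 7.44, SE 0.56, edgeR adjusted p = 3.37e-11). Itgax, the gene of the integrin alpha chain CD11c, had 31.5 to 70.9 CPM (median 55.6) in 5xFAD/Veh mice, against 0.182 to 0.859 CPM (median 0.484) in WT/Veh mice (log2 change 6.75, SE 0.38, edgeR adjusted p = 1.34e-14). These 3 genes were almost without reads in WT/Veh mice and were present in every 5xFAD/Veh mouse. Clec7a, the receptor dectin-1 that recognises beta-glucans, had a lowest, median and highest level of 28.4, 39.2 and 66.3 CPM in 5xFAD/Veh mice, and of 0.182, 1.07 and 2.60 CPM in WT/Veh mice (log2 change 5.13, SE 0.42, edgeR adjusted p = 9.23e-11). Gpnmb, a glycoprotein of lysosome-rich phagocytes, had 36.8 to 93.9 CPM (median 59.0) in 5xFAD/Veh mice, against 1.45 to 8.59 CPM (median 6.08) in WT/Veh mice (log2 change 3.47, SE 0.30, edgeR adjusted p = 2.93e-10). Spp1, which encodes the secreted phosphoprotein osteopontin, was more variable, with 27.5 to 208 CPM (median 87.9) in 5xFAD/Veh mice, against 2.70 to 28.02 CPM (median 7.58) in WT/Veh mice, and the groups overlapped by 1 mouse, WT/Veh 3M, which lay just above 5xFAD/Veh 1F (log2 change 2.94, SE 0.50, edgeR adjusted p = 0.000135). Mamdc2, a proteoglycan gene that carries MAM domains, had 9.93 to 35.3 CPM (median 19.9) in 5xFAD/Veh mice, against 1.09 to 3.77 CPM (median 2.09) in WT/Veh mice (log2 change 3.25, edgeR adjusted p = 2.32e-11). Lpl, the lipoprotein lipase gene, and Axl, a receptor kinase for cells that expose phosphatidylserine, had smaller changes of 0.92 and 0.82 (edgeR adjusted p = 0.00706 and 1.48e-07). Axl had 111 to 148 CPM (median 137) in 5xFAD/Veh mice, against 54.2 to 88.3 CPM (median 76.5) in WT/Veh mice, so a smaller fold change still separated the groups. Members that did not pass were Fabp5, Ank, Cox6a2, Postn, Fam20c and Gpx3.

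Outside the list, the largest changes among called genes with a mean of at least 1 CPM were in 2 less familiar genes. Cd200r4, an activating receptor of myeloid cells, had 1.75 to 4.74 CPM (median 2.18) in 5xFAD/Veh mice, against 0 to 0.199 CPM (median 0) in WT/Veh mice (log2 change 6.15, SE 0.73, edgeR adjusted p = 1.02e-07). Tgm1, a transglutaminase best known from skin and here a member of the reactive astrocyte list, had 2.90 to 6.17 CPM (median 4.10) in 5xFAD/Veh mice, against 0 to 0.335 CPM (median 0.0215) in WT/Veh mice (log2 change 5.52, SE 0.64, edgeR adjusted p = 7.61e-08). A similar change was seen in Hcar2, the receptor for niacin and for the ketone body beta-hydroxybutyrate, which had 2.41 to 8.47 CPM (median 3.77) in 5xFAD/Veh mice, against 0 to 0.464 CPM (median 0.0626) in WT/Veh mice (log2 change 5.11, SE 0.65, edgeR adjusted p = 5.13e-07). In each of these 3 genes every 5xFAD/Veh mouse was above every WT/Veh mouse.

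The receptor TREM2 and its signalling partners were almost all higher. Of 20 genes 18 passed, all of them upward, with a median log2 fold change of 1.42, and all 20 values were positive. Trem2 had 65.1 to 146 CPM (median 91.0) in 5xFAD/Veh mice, against 12.9 to 21.2 CPM (median 16.8) in WT/Veh mice (log2 change 2.50, SE 0.19, edgeR adjusted p = 2.18e-11). Tyrobp, the adaptor that carries its signal, had 18.4 to 69.2 CPM (median 31.3) in 5xFAD/Veh mice, against 3.87 to 12.8 CPM (median 8.58) in WT/Veh mice, and 5xFAD/Veh male 3M stood apart at 69.2 CPM, as it did for Cst7 (log2 change 1.97, SE 0.24, edgeR adjusted p = 3.03e-07). Downstream, Vav1, an exchange factor for small GTPases, had 8.65 to 13.3 CPM (median 10.9) in 5xFAD/Veh mice, against 3.00 to 4.79 CPM (median 4.22) in WT/Veh mice (log2 change 1.43, edgeR adjusted p = 2.53e-09). The phosphatases that limit such signals rose as well. Ptpn6 (SHP-1) had 12.3 to 18.7 CPM (median 14.5) in 5xFAD/Veh mice, against 1.46 to 5.10 CPM (median 3.13) in WT/Veh mice (log2 change 2.24, SE 0.21, edgeR adjusted p = 8.62e-10). Inpp5d (SHIP1), which is also an AD risk gene, had 26.6 to 39.5 CPM (median 33.6) in 5xFAD/Veh mice, against 12.2 to 20.1 CPM (median 16.8) in WT/Veh mice (log2 change 1.00, SE 0.13, edgeR adjusted p = 6.49e-07). Plek, the gene of the kinase substrate pleckstrin, was among the 10 genes with the smallest p, with 76.8 to 117 CPM (median 88.4) in 5xFAD/Veh mice, against 16.02 to 27.2 CPM (median 20.1) in WT/Veh mice (log2 change 2.16, edgeR adjusted p = 1.31e-11). Syk, the kinase that binds the phosphorylated adaptor, and Nfam1 were the members that did not pass.

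Genes of homeostatic microglia were higher too, by less. Of 25 genes 15 passed upward and 0 downward, all 25 log2 fold changes were positive, and their median was 0.77. Their summed level was 2336 to 2734 CPM (median 2558) in 5xFAD/Veh mice, against 1544 to 1867 CPM (median 1780.0) in WT/Veh mice. That of the plaque-associated list was 1532 to 2072 CPM (median 1780.0) in 5xFAD/Veh mice, against 743 to 1096 CPM (median 863) in WT/Veh mice. In both lists the groups did not overlap. Cx3cr1, the fractalkine receptor gene, had 138 to 198 CPM (median 175) in 5xFAD/Veh mice, against 59.9 to 83.3 CPM (median 71.1) in WT/Veh mice (log2 change 1.29, edgeR adjusted p = 8.72e-08). Fcrls, an Fc receptor-like gene of mouse microglia, had 68.0 to 145 CPM (median 119) in 5xFAD/Veh mice, against 22.3 to 35.8 CPM (median 25.6) in WT/Veh mice (log2 change 2.04, edgeR adjusted p = 1.3e-07). In both genes the groups did not overlap. For the purine receptor gene P2ry12 the change was small, with 65.2 to 103 CPM (median 78.9) in 5xFAD/Veh mice, against 42.0 to 60.3 CPM (median 49.5) in WT/Veh mice (log2 change 0.64, SE 0.17, edgeR adjusted p = 0.0214), although all 8 5xFAD/Veh mice exceeded all 8 WT/Veh mice. For Tmem119, a membrane protein used to tell microglia from other macrophages, it was of similar size with overlapping groups, 26.8 to 70.1 CPM (median 46.6) in 5xFAD/Veh mice, against 20.3 to 41.9 CPM (median 31.5) in WT/Veh mice (log2 change 0.59, SE 0.17, edgeR adjusted p = 0.0459). The call of Tmem119 was kept in 10 and that of P2ry12 in 27 of 37 alternative analyses, while Cx3cr1 was called in all 37.

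Growth factor receptors of myeloid cells followed the same direction, with 11 of 16 genes higher. Csf1r itself had 248 to 365 CPM (median 314) in 5xFAD/Veh mice, against 114 to 195 CPM (median 140.4) in WT/Veh mice (log2 change 1.10, SE 0.12, edgeR adjusted p = 2.5e-08). Its ligand Csf1 had 39.1 to 63.8 CPM (median 54.6) in 5xFAD/Veh mice, against 16.1 to 28.5 CPM (median 21.2) in WT/Veh mice (log2 change 1.34, SE 0.14, edgeR adjusted p = 6.52e-09). The other ligand gene Il34, expressed by neurons, did not pass. Tgfbr2, a receptor chain for TGF-beta, had 59.1 to 93.2 CPM (median 76.1) in 5xFAD/Veh mice, against 27.1 to 39.3 CPM (median 30.3) in WT/Veh mice (log2 change 1.21, edgeR adjusted p = 2.46e-09). Of 19 myeloid transcription factors 8 were higher. Spi1, which encodes the lineage factor PU.1, had 11.6 to 17.2 CPM (median 14.5) in 5xFAD/Veh mice, against 2.62 to 7.17 CPM (median 5.10) in WT/Veh mice (log2 change 1.52, SE 0.15, edgeR adjusted p = 5.02e-09). Irf8, its partner in microglia, had 24.0 to 38.0 CPM (median 28.3) in 5xFAD/Veh mice, against 5.32 to 9.69 CPM (median 7.42) in WT/Veh mice (log2 change 1.96, SE 0.20, edgeR adjusted p = 6.14e-09). Cebpa, Ikzf1, Runx1, Irf5 and Stat3 were also among the 8, and Cebpb, Relb, Nfkb2 and Mitf among the 11 factors that did not pass.

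PU.1 binds purine-rich sites, and its consensus GAGGAAGT was searched on both strands in RefSeq promoters of GRCm38.p6 (250 bases before to 50 bases after each start), which were given for 465 of the 611 higher genes. It occurred in the promoters of 43 of these 465 genes (9.25%), of 396 of the 12035 tested genes with a promoter (3.29%) and of 997 of all 27025 genes with one (3.69%). Among the called genes of TREM2 signalling it was found in 3 of 12 (Inpp5d, Vav1 and Pik3cg). The 160 bases before the start are printed for Inpp5d (chr1:87620152-87620311, plus strand), Vav1 (chr17:57278940-57279099, plus strand) and the Fc receptor gene Fcgr4 (chr1:171018766-171018925, plus strand), as examples, chosen after the matches were seen, of called genes with a match close to the start, at -20, -11 and -24. Other called genes had a match closer still, Pik3cg and Ctss at -2 and Slamf9 at -8. Capitals mark the match, in Fcgr4 on the opposite strand.
Inpp5d: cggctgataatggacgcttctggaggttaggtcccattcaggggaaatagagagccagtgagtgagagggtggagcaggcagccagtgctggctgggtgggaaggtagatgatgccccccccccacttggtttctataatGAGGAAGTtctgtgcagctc
Vav1: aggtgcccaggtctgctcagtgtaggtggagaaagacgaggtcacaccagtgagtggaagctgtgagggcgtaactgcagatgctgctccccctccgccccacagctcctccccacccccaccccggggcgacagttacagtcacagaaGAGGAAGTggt
Fcgr4: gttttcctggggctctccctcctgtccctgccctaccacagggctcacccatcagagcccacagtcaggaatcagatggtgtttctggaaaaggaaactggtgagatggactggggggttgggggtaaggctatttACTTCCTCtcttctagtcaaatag
A match is a description of the letters in these windows and not a site of binding.

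Genes of the phagocyte oxidase and a part of the Fc and scavenger receptor genes were higher. All 7 tested subunits of the phagocyte NADPH oxidase, which makes superoxide in the phagosome, were higher, with log2 fold changes of 1.66 to 3.56, and all 7 were separated. Cybb, the catalytic subunit gp91phox, had 5.49 to 12.4 CPM (median 8.85) in 5xFAD/Veh mice, against 0.0621 to 1.39 CPM (median 0.759) in WT/Veh mice (log2 change 3.56, SE 0.29, edgeR adjusted p = 3.65e-11). Its membrane partner Cyba had 21.98 to 37.1 CPM (median 28.3) in 5xFAD/Veh mice, against 4.85 to 10.8 CPM (median 7.50) in WT/Veh mice (log2 change 1.93, edgeR adjusted p = 2.12e-09). The cytosolic organiser gene Ncf1 had a log2 fold change of 1.66 (edgeR adjusted p = 3.55e-08). Of 18 Fc and scavenger receptors 7 were higher. Fcgr2b, the inhibitory receptor for IgG, had 22.4 to 43.2 CPM (median 34.0) in 5xFAD/Veh mice, against 2.22 to 5.51 CPM (median 4.32) in WT/Veh mice (log2 change 3.07, SE 0.21, edgeR adjusted p = 1.08e-12). The activating receptor gene Fcgr4 had 1.30 to 5.92 CPM (median 1.68) in 5xFAD/Veh mice, against 0 to 0.896 CPM (median 0.0973) in WT/Veh mice (log2 change 3.16, SE 0.66, edgeR adjusted p = 0.00135). Fcer1g, the signalling chain of the activating receptors, had 30.7 to 54.1 CPM (median 43.4) in 5xFAD/Veh mice, against 7.04 to 14.5 CPM (median 10.2) in WT/Veh mice (log2 change 2.00, edgeR adjusted p = 3.65e-11). Cd14, the co-receptor for lipopolysaccharide, had 12.8 to 24.7 CPM (median 20.01) in 5xFAD/Veh mice, against 2.61 to 4.63 CPM (median 3.62) in WT/Veh mice (log2 change 2.41, edgeR adjusted p = 3.65e-11). The scavenger receptor genes of border macrophages, Mrc1, Stab1 and Cd163, were among the 11 that did not pass.

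Of 18 Toll-like receptor and inflammasome genes 14 were higher, with a median of 1.36. Tlr2, a sensor of bacterial lipoproteins and of amyloid fibrils, had 12.5 to 22.4 CPM (median 14.6) in 5xFAD/Veh mice, against 0.870 to 5.46 CPM (median 2.39) in WT/Veh mice (log2 change 2.54, SE 0.30, edgeR adjusted p = 1.3e-07). Tlr13, which senses bacterial ribosomal RNA in the endosome, had 11.3 to 17.0 CPM (median 13.9) in 5xFAD/Veh mice, against 1.93 to 6.24 CPM (median 3.11) in WT/Veh mice (log2 change 2.04, edgeR adjusted p = 3.14e-08). Unc93b1, which escorts the endosomal receptors, had 33.5 to 53.1 CPM (median 45.2) in 5xFAD/Veh mice, against 14.1 to 23.4 CPM (median 17.6) in WT/Veh mice (log2 change 1.30, edgeR adjusted p = 1.47e-09). Nlrp3, Pycard and Casp1 of the inflammasome passed as well. The cytokine genes Il1b and Tnf had too few reads to be tested, and Il1a and Il18 did not pass. Among 18 leukocyte integrin and adhesion genes 10 were higher, with Itgax the most changed. The shared beta chain gene Itgb2 had 29.9 to 45.0 CPM (median 37.3) in 5xFAD/Veh mice, against 7.26 to 11.4 CPM (median 10.4) in WT/Veh mice (log2 change 1.89, edgeR adjusted p = 9.23e-11). Itgb5, a partner of the alpha V chain, had 151 to 210.2 CPM (median 173) in 5xFAD/Veh mice, against 60.0 to 98.4 CPM (median 88.5) in WT/Veh mice (log2 change 1.06, edgeR adjusted p = 1.47e-09).

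Lysosomal genes of both lists included called and uncalled members. Of 19 proteases and inhibitors 11 were higher, with a median of 0.73, and of 37 hydrolases and membrane proteins 16, with a median of 0.29. The cathepsin Z gene Ctsz had 132 to 193 CPM (median 152) in 5xFAD/Veh mice, against 34.1 to 58.1 CPM (median 49.6) in WT/Veh mice (log2 change 1.76, SE 0.14, edgeR adjusted p = 1.95e-11). Ctsd, which encodes the aspartic protease cathepsin D, had 637 to 1084 CPM (median 799.6) in 5xFAD/Veh mice, against 194 to 359.8 CPM (median 251) in WT/Veh mice (log2 change 1.63, SE 0.17, edgeR adjusted p = 6.69e-09). Ctsb, the gene of cathepsin B, changed by less and was still separated, with 816 to 1125 CPM (median 962) in 5xFAD/Veh mice, against 438 to 692 CPM (median 582) in WT/Veh mice (log2 change 0.76, edgeR adjusted p = 2.47e-06). Ctss, the cathepsin that trims the invariant chain, had 121 to 399 CPM (median 219) in 5xFAD/Veh mice, against 62.9 to 106 CPM (median 77.9) in WT/Veh mice (log2 change 1.58, edgeR adjusted p = 5.15e-07). All 4 cathepsin genes were separated between the groups. Cd68, a heavily glycosylated lysosomal membrane protein, had 46.9 to 92.5 CPM (median 75.5) in 5xFAD/Veh mice, against 8.31 to 21.7 CPM (median 11.6) in WT/Veh mice (log2 change 2.52, SE 0.18, edgeR adjusted p = 6.99e-12). Grn, the gene of progranulin, which keeps lysosomal enzymes active, had 156 to 268 CPM (median 191) in 5xFAD/Veh mice, against 63.0 to 94.4 CPM (median 68.8) in WT/Veh mice (log2 change 1.54, SE 0.12, edgeR adjusted p = 3.59e-11). Mpeg1, the pore-forming perforin-2 of macrophages, had 149 to 305 CPM (median 236) in 5xFAD/Veh mice, against 33.8 to 59.7 CPM (median 42.4) in WT/Veh mice (log2 change 2.42, edgeR adjusted p = 3.76e-11). The proton pump subunits Atp6v1a, Atp6v0d1, Atp6v0c, Atp6v0a1 and Atp6v1h and the regulators Tfeb and Tfe3, which all cells use, were among the 21 hydrolase and membrane genes that did not pass.

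**Figure D2:**
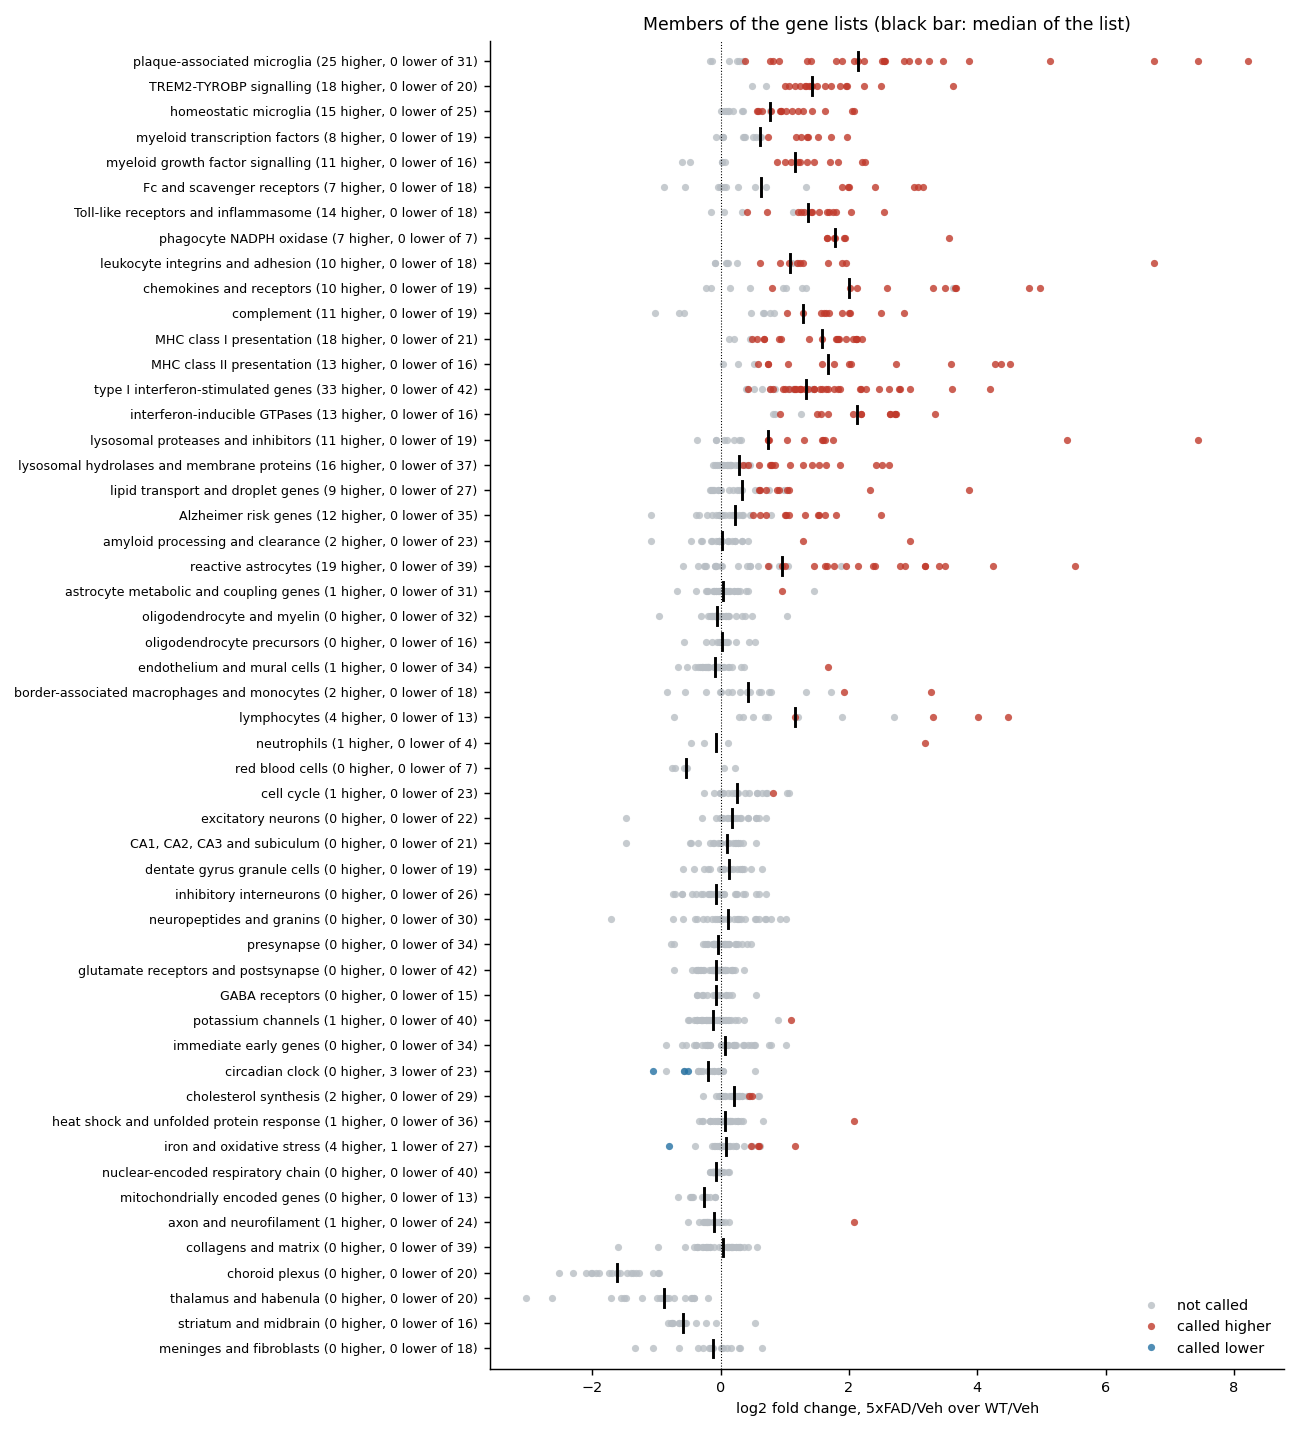
Log2 fold change (5xFAD/Veh over WT/Veh) of each tested member of 52 gene lists, one list per line, with called members in red (higher) or blue (lower), others in grey and a black bar at the median of the list. Microglial, interferon, MHC and complement lists have most members to the right of 0. Most neuronal lists and the oligodendrocyte lists lie around 0 with 0 members called, while the axon and neurofilament and the potassium channel lists have 1 called member each. The choroid plexus and thalamus lists lie to the left of 0 with 0 members called.

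Antigen presentation and the interferon response made up the next large group. Of 21 genes of MHC class I presentation 18 were higher, with a median of 1.58. B2m, the light chain of all class I molecules, had 301 to 484 CPM (median 339.7) in 5xFAD/Veh mice, against 84.4 to 105.4 CPM (median 93.5) in WT/Veh mice (log2 change 1.96, SE 0.14, edgeR adjusted p = 6.51e-12). Of the heavy chain genes, H2-D1 had 101 to 306 CPM (median 201) in 5xFAD/Veh mice, against 41.0 to 54.4 CPM (median 47.2) in WT/Veh mice (log2 change 2.06, edgeR adjusted p = 3.65e-11). H2-K1 had 112 to 199.8 CPM (median 127) in 5xFAD/Veh mice, against 31.9 to 49.0 CPM (median 40.3) in WT/Veh mice (log2 change 1.82, edgeR adjusted p = 6.27e-11). Reads of H2 genes may be shared between close copies, and their values are uncertain to that extent. Tap1, Tap2, Tapbp and the immunoproteasome genes Psmb8, Psmb9 and Psmb10, which make and load the peptides, were called, and the chaperone genes Pdia3 and Calr were not. The class I transactivator gene Nlrc5 had 1.23 to 5.03 CPM (median 1.95) in 5xFAD/Veh mice, against 0 to 1.29 CPM (median 0.678) in WT/Veh mice (log2 change 1.84, edgeR adjusted p = 0.0268) and overlapping groups.

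MHC class II presentation is restricted to professional antigen-presenting cells, and 13 of its 16 tested genes were higher (median 1.67). Cd74, the invariant chain, had 29.6 to 367 CPM (median 78.9) in 5xFAD/Veh mice, against 1.94 to 8.19 CPM (median 4.73) in WT/Veh mice (log2 change 4.51, SE 0.51, edgeR adjusted p = 1.29e-07). Of the class II chain genes, H2-Ab1 had 12.4 to 81.1 CPM (median 17.2) in 5xFAD/Veh mice, against 0.182 to 2.65 CPM (median 1.04) in WT/Veh mice (log2 change 4.37, edgeR adjusted p = 1.73e-07). H2-Aa had 17.2 to 116 CPM (median 25.2) in 5xFAD/Veh mice, against 0.813 to 3.84 CPM (median 1.80) in WT/Veh mice (log2 change 4.28, edgeR adjusted p = 9.87e-07). These levels were low in WT/Veh mice and varied widely among 5xFAD/Veh mice. H2-Eb1 had 7.64 to 81.6 CPM (median 10.4) in 5xFAD/Veh mice, against 0.563 to 2.85 CPM (median 1.79) in WT/Veh mice (log2 change 3.59, edgeR adjusted p = 6.17e-06). In all 4 genes 5xFAD/Veh male 2M was highest and the other 7 mice were still above every WT/Veh mouse. The sum over the list was 1343 CPM in male 2M, against 497 to 768 CPM in the other 7 5xFAD/Veh mice. The class II transactivator gene Ciita did not pass.

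Of 42 tested type I interferon-stimulated genes 33 were higher and all 42 had a positive log2 fold change (median 1.34). The transcription factor gene Irf9 had 17.8 to 22.96 CPM (median 20.7) in 5xFAD/Veh mice, against 3.63 to 8.71 CPM (median 7.80) in WT/Veh mice (log2 change 1.54, SE 0.15, edgeR adjusted p = 1.94e-09). Its partner Stat2 did not pass. Ifitm3, a membrane protein that blocks virus entry and has been described as a modulator of gamma-secretase, had 24.8 to 39.3 CPM (median 28.5) in 5xFAD/Veh mice, against 8.12 to 14.8 CPM (median 10.8) in WT/Veh mice (log2 change 1.45, edgeR adjusted p = 1.02e-08). Ifit3, which binds foreign RNA with its relatives, had 21.0 to 32.8 CPM (median 26.9) in 5xFAD/Veh mice, against 5.51 to 14.4 CPM (median 8.08) in WT/Veh mice (log2 change 1.65, edgeR adjusted p = 1.21e-07). The groups did not overlap in Irf9, Ifitm3 or Ifit3. Trim30a, a ubiquitin ligase of mouse macrophages, had 9.32 to 15.8 CPM (median 11.04) in 5xFAD/Veh mice, against 1.55 to 4.42 CPM (median 2.46) in WT/Veh mice (log2 change 2.19, edgeR adjusted p = 3.97e-09). Oas1a, a sensor of double-stranded RNA, had 1.32 to 4.51 CPM (median 3.61) in 5xFAD/Veh mice, against 0.299 to 0.848 CPM (median 0.402) in WT/Veh mice (log2 change 2.77, edgeR adjusted p = 5.34e-06). For Isg15, a ubiquitin-like modifier, the groups overlapped, with 1.88 to 8.77 CPM (median 4.72) in 5xFAD/Veh mice, against 0 to 3.23 CPM (median 1.49) in WT/Veh mice (log2 change 1.83, edgeR adjusted p = 0.0146).

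The interferon-inducible GTPases, which attack vacuoles that hold pathogens, had 13 of 16 genes higher, and the 16 log2 fold changes had a median of 2.12. Irgm1 had 25.3 to 87.9 CPM (median 31.5) in 5xFAD/Veh mice, against 4.17 to 10.9 CPM (median 8.63) in WT/Veh mice (log2 change 2.18, SE 0.21, edgeR adjusted p = 1.64e-09). Gbp2 had 10.4 to 97.0 CPM (median 12.9) in 5xFAD/Veh mice, against 2.80 to 6.19 CPM (median 3.65) in WT/Veh mice (log2 change 2.63, SE 0.36, edgeR adjusted p = 2.34e-06). Both genes were higher in every 5xFAD/Veh mouse than in any WT/Veh mouse. Iigp1 had 3.47 to 42.5 CPM (median 6.41) in 5xFAD/Veh mice, against 0.788 to 3.38 CPM (median 1.44) in WT/Veh mice (log2 change 2.71, edgeR adjusted p = 6.77e-05). Igtp had 7.24 to 61.7 CPM (median 10.4) in 5xFAD/Veh mice, against 2.42 to 7.51 CPM (median 3.65) in WT/Veh mice (log2 change 2.18, edgeR adjusted p = 2.5e-05). Irgm2, a relative of Irgm1, had 12.2 to 36.5 CPM (median 14.7) in 5xFAD/Veh mice, against 4.66 to 9.26 CPM (median 6.31) in WT/Veh mice (log2 change 1.51, edgeR adjusted p = 5.91e-06). Each of these genes was highest in 5xFAD/Veh female 1F, and the next mouse was at 42.4 CPM for Irgm1, 28.9 CPM for Gbp2, 10.9 CPM for Iigp1 and 20.1 CPM for Igtp. For Igtp the groups overlapped, because WT/Veh male 2M was above the lowest 5xFAD/Veh mouse. The sum over the list was 474 CPM in female 1F, 103 to 174 CPM in the other 7 5xFAD/Veh mice and 34.4 to 59.9 CPM in the WT/Veh mice, so the groups did not overlap. With female 1F left out, the GTPase list still had 12 of 16 genes called higher and a median of 1.498, against 1.579 for the genes of MHC class I presentation and 1.647 for those of MHC class II presentation in the same fit. The class II list, by contrast, was highest in male 2M, and the type I interferon-stimulated genes in female 2F.

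**Figure D3:**
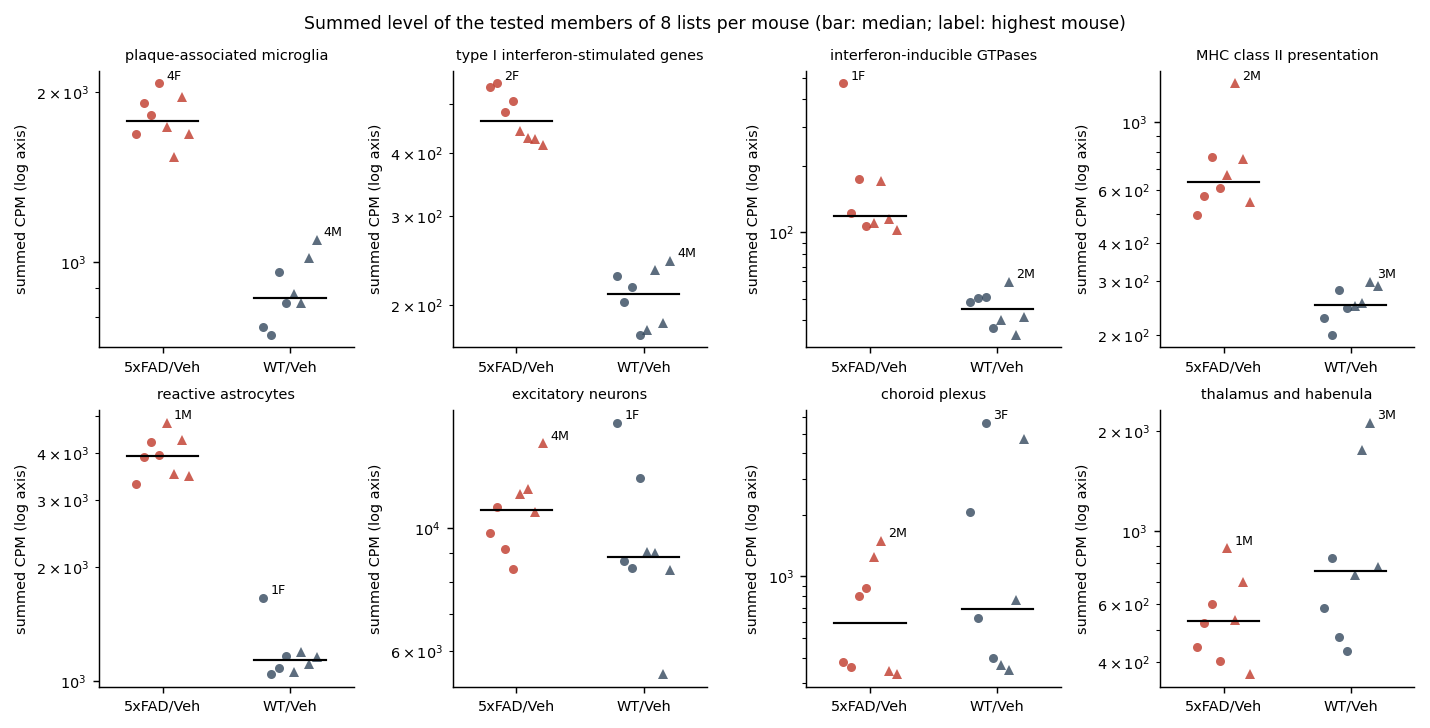
Summed CPM of the tested members of 8 lists in each mouse, on log axes, with 5xFAD/Veh at the left and WT/Veh at the right (circles, females; triangles, males; bar, median; the highest mouse of each group is labelled). The microglial, interferon, MHC class II and reactive astrocyte sums do not overlap, with female 1F apart in the GTPases and male 2M in MHC class II, while the excitatory neuron, choroid plexus and thalamus sums overlap and the last 2 have high WT/Veh mice.

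IRF9 with STAT2 binds the interferon-stimulated response element, whose core, 2 copies of GAAA with any 2 bases between them, was searched on both strands in the same promoters. It occurred in 54 of 465 higher genes (11.6%), in 447 of 12035 tested genes (3.71%), in 1079 of all 27025 genes (3.99%) and in 0 of 22 lower genes with a promoter. By list it was present in 8 of 9 called GTPase genes, 14 of 25 called type I interferon-stimulated genes, 5 of 16 called genes of MHC class I, 1 of 9 of class II and 0 of 12 of TREM2 signalling. A longer core, the same letters followed by CT, was found in 20 of 465 higher genes (4.30%) and in 82 of all 27025 genes (0.303%). A further 5 motifs were searched in the same way. The gamma-activated site, TTCNNNGAA, occurred in 5 of 9 called GTPase genes, in 49 of 465 higher genes (10.5%), in 977 of 12035 tested genes (8.12%) and in 9.55% of all 27025 genes. The E-box CACGTG, which clock factors bind, occurred in 46 of 465 higher genes (9.89%), 4 of 22 lower genes, 1348 tested genes (11.2%) and 8.09% of all genes. The CLEAR element of lysosomal genes, the same E-box with GT before and AC after it, occurred in 0 higher genes, 82 tested genes (0.681%) and 0.370% of all genes. For TGACGTCA, an X2 box known from MHC class II promoters, it was 7 higher genes (1.505%), 406 tested genes (3.37%) and 2.03% of all genes. For the D-box, TTATGTAA or TTACGTAA, it was 2 higher genes (0.430%), 108 tested genes (0.897%) and 1.23% of all genes. The interferon lists were collected from genes known to respond to interferon, and the shares are a description. The 160 bases before the start are printed for 6 called genes of these lists to show where the core lies, namely Irgm1 (chr11:48871421-48871580, minus strand), Isg15 (chr4:156200819-156200978, minus strand), Oas1a (chr5:120907526-120907685, minus strand), Gbp2 (chr3:142620503-142620662, plus strand), Ifit3 (chr19:34583369-34583528, plus strand) and B2m (chr2:122147527-122147686, plus strand). All coordinates are of GRCm38.p6, each sequence runs in the direction of its gene, and capitals mark the core on either strand, where overlapping matches run together.
Irgm1: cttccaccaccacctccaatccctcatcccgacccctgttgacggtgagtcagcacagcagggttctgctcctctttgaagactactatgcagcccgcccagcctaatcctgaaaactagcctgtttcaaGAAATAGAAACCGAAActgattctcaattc
Isg15: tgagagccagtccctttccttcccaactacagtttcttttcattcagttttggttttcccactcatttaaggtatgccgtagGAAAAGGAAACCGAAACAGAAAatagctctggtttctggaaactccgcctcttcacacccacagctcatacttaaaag
Oas1a: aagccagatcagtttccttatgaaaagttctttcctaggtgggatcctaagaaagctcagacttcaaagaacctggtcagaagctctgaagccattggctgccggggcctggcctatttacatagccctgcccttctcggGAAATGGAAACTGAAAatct
Gbp2: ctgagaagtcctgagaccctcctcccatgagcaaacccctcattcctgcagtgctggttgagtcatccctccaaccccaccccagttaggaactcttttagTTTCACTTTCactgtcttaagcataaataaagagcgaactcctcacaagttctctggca
Ifit3: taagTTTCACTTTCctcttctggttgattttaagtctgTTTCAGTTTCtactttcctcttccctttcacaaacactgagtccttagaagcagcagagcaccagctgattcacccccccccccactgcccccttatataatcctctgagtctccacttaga
B2m: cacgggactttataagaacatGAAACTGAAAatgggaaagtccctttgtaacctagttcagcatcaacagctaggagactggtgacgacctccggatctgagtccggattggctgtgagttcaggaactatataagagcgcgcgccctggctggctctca
In Irgm1 and Oas1a the first match began at -30 and -20 and in Gbp2 at -59, while in Ifit3 and B2m it began at -156 and -139. Isg15 held 3 overlapping matches, the first at -78. Isg15, with 3 matches, had a log2 fold change of 1.83, and Gbp2, with 1, of 2.63.

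**Figure D4:**
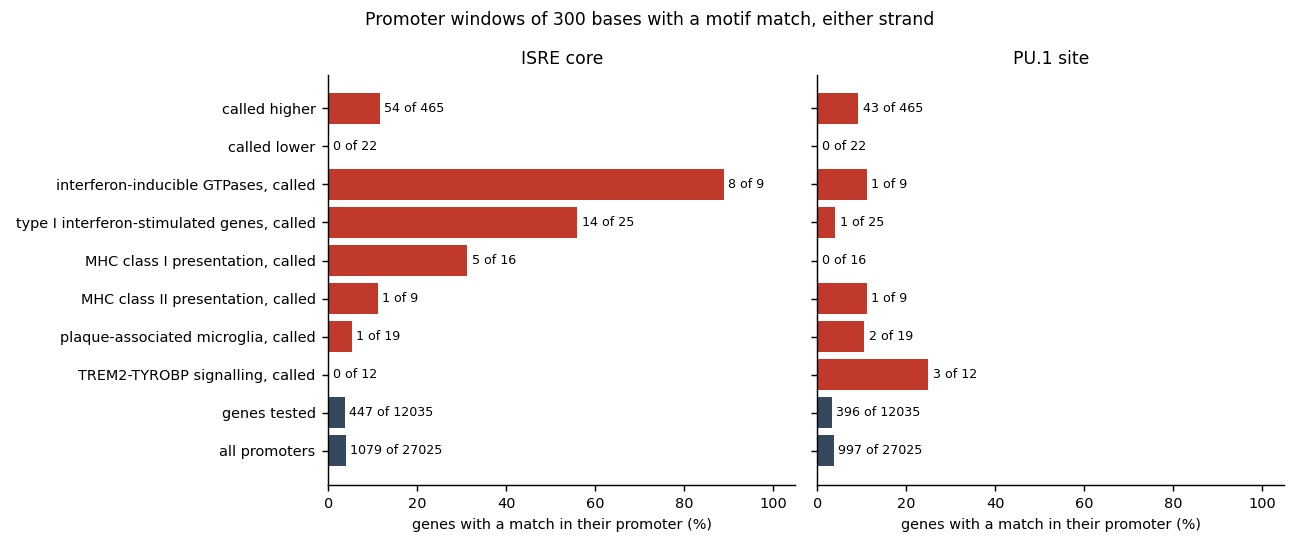
Share of genes (in %) with at least 1 match to the interferon response core or to the PU.1 site in a promoter window of 300 bases, for called genes and lists (red) and for the genes tested and all promoters (dark), with the counts beside each bar. The interferon core is in 8 of 9 called GTPase genes and in 447 of 12035 genes tested, and the PU.1 site in 43 of 465 higher genes and in 396 of 12035.

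Chemokine genes were among the largest changes at low level. Of 24 genes 19 were tested, and 10 of these were higher, with a median of 2.01. Genes near 0 in WT/Veh mice could pass the filter through groups where they were high, so these values are a description. Ccl3 (MIP-1 alpha) had 5.76 to 12.9 CPM (median 9.29) in 5xFAD/Veh mice, against 0 to 0.596 CPM (median 0.279) in WT/Veh mice (log2 change 4.98, SE 0.51, edgeR adjusted p = 7.89e-09). Ccl4 (MIP-1 beta), a neighbour of similar function, had 1.42 to 3.32 CPM (median 1.94) in 5xFAD/Veh mice, against 0 to 0.401 CPM (median 0.171) in WT/Veh mice (log2 change 3.67, edgeR adjusted p = 5.08e-06). Ccl6, a chemokine known from mouse myeloid cells, had 16.8 to 34.7 CPM (median 26.1) in 5xFAD/Veh mice, against 0.816 to 3.44 CPM (median 2.11) in WT/Veh mice (log2 change 3.66, SE 0.28, edgeR adjusted p = 1.55e-11). Of the interferon-induced chemokine genes that attract T cells, Cxcl9 had 0.506 to 5.54 CPM (median 1.48) in 5xFAD/Veh mice, against 0 to 0.387 CPM (median 0) in WT/Veh mice (log2 change 4.81, edgeR adjusted p = 0.000199). Cxcl10 had 3.53 to 29.8 CPM (median 5.71) in 5xFAD/Veh mice, against 0 to 3.88 CPM (median 0.356) in WT/Veh mice (log2 change 3.496, edgeR adjusted p = 0.000904). Cxcl9 was highest in male 2M, the mouse with the highest MHC class II sum, and the groups of Cxcl10 overlapped through WT/Veh male 2M. The receptor genes Ccr1 and Ccr2 and the neuronal ligand Cx3cl1 did not pass.

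Of 19 complement genes 11 were higher (median 1.28). C4b had 510.4 to 843 CPM (median 707) in 5xFAD/Veh mice, against 70.6 to 122 CPM (median 89.2) in WT/Veh mice (log2 change 2.86, SE 0.16, edgeR adjusted p = 1.34e-14). It may share reads with its close copy C4a, and it had the same smallest adjusted p as Itgax. The C1q chain genes, which microglia express, had smaller fold changes. C1qb had 107 to 197 CPM (median 159.9) in 5xFAD/Veh mice, against 36.6 to 58.0 CPM (median 48.7) in WT/Veh mice (log2 change 1.65, edgeR adjusted p = 5.81e-11). C1qc had 129 to 214 CPM (median 161) in 5xFAD/Veh mice, against 28.6 to 47.4 CPM (median 43.2) in WT/Veh mice (log2 change 2.00, edgeR adjusted p = 2.18e-11). C3, C3ar1, C5ar1 and Serping1 also passed.

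Among lists of blood and vessel cells, 4 of 13 tested lymphocyte genes were called (30.8%), 2 of 18 genes of border macrophages and monocytes (11.1%), 1 of 4 neutrophil genes (25%) and 1 of 34 endothelial and mural genes (2.94%), against 3.86% of all genes tested. The filter asked for enough reads in only as many libraries as 1 group holds. Genes near 0 in WT/Veh mice could thus be tested through groups where they were high, so these shares are a description. Ptprc, the leukocyte antigen CD45 that microglia share at low level, had 8.13 to 15.7 CPM (median 13.8) in 5xFAD/Veh mice, against 1.06 to 5.18 CPM (median 2.06) in WT/Veh mice (log2 change 2.43, edgeR adjusted p = 1.78e-08). Of 30 lymphocyte genes 13, and of 12 neutrophil genes 4, had enough reads to be tested. Pdcd1, the inhibitory receptor PD-1, had 0.722 to 4.19 CPM (median 2.57) in 5xFAD/Veh mice, against 0 to 0.606 CPM (median 0) in WT/Veh mice (log2 change 4.47, edgeR adjusted p = 7.01e-05). Cd5, another T cell receptor regulator, had 0.181 to 1.30 CPM (median 0.659) in 5xFAD/Veh mice, against 0 to 0.172 CPM (median 0) in WT/Veh mice (log2 change 4.00, edgeR adjusted p = 0.00177). These were levels of a few CPM at most. Ccl5, a chemokine of T cells and of activated macrophages, had 0.706 to 3.73 CPM (median 1.45) in 5xFAD/Veh mice, against 0 to 0.688 CPM (median 0.0547) in WT/Veh mice (log2 change 3.31, edgeR adjusted p = 0.00491). Ighm, the IgM heavy chain gene, had 30.8 to 71.5 CPM (median 46.5) in 5xFAD/Veh mice, against 11.1 to 45.4 CPM (median 16.1) in WT/Veh mice (log2 change 1.16, edgeR adjusted p = 0.0417) and overlapping groups, and 17 of 37 alternatives kept the call. The T cell receptor subunit genes Cd3d, Cd3e and Cd3g and the B cell genes Ms4a1 and Cd79a had too few reads to be tested. Cd8a, the co-receptor of cytotoxic T cells, had 0.0834 to 1.69 CPM (median 0.667) in 5xFAD/Veh mice, against 0 to 0.461 CPM (median 0.0495) in WT/Veh mice (log2 change 2.71, edgeR adjusted p = 0.0959). Ly6c2, a marker of inflammatory monocytes, had 0.134 to 1.69 CPM (median 0.548) in 5xFAD/Veh mice, against 0 to 0.292 CPM (median 0) in WT/Veh mice (log2 change 3.29, edgeR adjusted p = 0.00683) and overlapping groups. Lyz2, a lysozyme gene that microglia can also express, had 7.17 to 35.8 CPM (median 12.4) in 5xFAD/Veh mice, against 0.545 to 7.13 CPM (median 4.52) in WT/Veh mice (log2 change 1.92, edgeR adjusted p = 0.00755). Lcn2, which neutrophils and reactive astrocytes express, had 0.407 to 2.67 CPM (median 1.58) in 5xFAD/Veh mice, against 0 to 0.344 CPM (median 0.130) in WT/Veh mice (log2 change 3.19, edgeR adjusted p = 0.000368). The neutrophil genes S100a8 and S100a9 did not pass. Among 7 red cell genes and 34 endothelial and mural genes, the adhesion molecule gene Icam1 was the only one called, with 4.94 to 9.36 CPM (median 6.28) in 5xFAD/Veh mice, against 1.39 to 3.18 CPM (median 1.75) in WT/Veh mice (log2 change 1.68, edgeR adjusted p = 3e-05). Endothelial markers such as Cldn5 and Pecam1 and the pericyte gene Pdgfrb were not called.

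Lipid and risk genes split between called and uncalled members. Of 27 lipid transport and droplet genes 9 were higher. Ch25h, which makes 25-hydroxycholesterol, had 1.505 to 5.35 CPM (median 3.81) in 5xFAD/Veh mice, against 0 to 0.530 CPM (median 0.281) in WT/Veh mice (log2 change 3.88, SE 0.54, edgeR adjusted p = 2.77e-06). Of the eicosanoid genes, Alox5 had 1.56 to 4.84 CPM (median 2.52) in 5xFAD/Veh mice, against 0.126 to 1.24 CPM (median 0.423) in WT/Veh mice (log2 change 2.33, edgeR adjusted p = 0.000349). Ptgs1 (COX-1) had 22.6 to 48.7 CPM (median 32.8) in 5xFAD/Veh mice, against 11.1 to 22.5 CPM (median 16.1) in WT/Veh mice (log2 change 1.03, edgeR adjusted p = 1.59e-05). Clu, the apolipoprotein clusterin made mainly by astrocytes, had 1419 to 2065 CPM (median 1731) in 5xFAD/Veh mice, against 883 to 1518 CPM (median 1103) in WT/Veh mice (log2 change 0.61, edgeR adjusted p = 0.00124). Of 35 tested AD risk genes 12 were higher and 0 lower (median 0.23). Besides Trem2, Grn, Spi1, Inpp5d and Clu they were Plcg2, Cd33, Ms4a6d, Abca1, Abi3, Adam17 and Ms4a6c. Ms4a6c was a borderline call (log2 change 1.80, edgeR adjusted p = 0.0494) that 11 of 35 alternatives kept. Bin1, Picalm, Sorl1, Ptk2b, Cd2ap and Abca7 were among the 23 risk genes that did not pass. In the cholesterol synthesis list 25 of 29 genes had a positive value, against 47.0% of all genes tested. Only 2 passed (6.9%, against 3.86% of all genes tested), both enzymes of the sterol pathway. They were Nsdhl (log2 change 0.49, edgeR adjusted p = 0.0233) and Fdft1 (log2 change 0.45, edgeR adjusted p = 0.0315). Of 37 alternative analyses 24 kept the call of Nsdhl and 23 that of Fdft1.

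Astrocytes showed a reactive pattern. Of 31 metabolic and coupling genes 1 was called (3.23%), near the share of 3.86% among all genes tested. Of 39 reactive astrocyte genes 19 were higher, with a median of 0.95, and their sum was 3306 to 4816 CPM (median 3936) in 5xFAD/Veh mice, against 1042 to 1657 CPM (median 1136) in WT/Veh mice. Gfap, the intermediate filament of astrocytes, had 1816 to 3001 CPM (median 2309) in 5xFAD/Veh mice, against 202 to 669 CPM (median 268) in WT/Veh mice (log2 change 2.88, SE 0.23, edgeR adjusted p = 3.98e-11). Vim, another filament gene that microglia and vessels also express, had 131 to 246 CPM (median 167) in 5xFAD/Veh mice, against 41.7 to 69.7 CPM (median 55.3) in WT/Veh mice (log2 change 1.63, edgeR adjusted p = 1.31e-07). Serpina3n, a secreted protease inhibitor, had 154 to 458 CPM (median 209) in 5xFAD/Veh mice, against 11.6 to 41.6 CPM (median 19.9) in WT/Veh mice (log2 change 3.41, SE 0.30, edgeR adjusted p = 3.32e-10), and it was highest in female 3F at 458 CPM. In these 3 genes every 5xFAD/Veh mouse was above every WT/Veh mouse. Igfbp5, a binding protein for insulin-like growth factors, had 388 to 606 CPM (median 429.6) in 5xFAD/Veh mice, against 187 to 312 CPM (median 229) in WT/Veh mice (log2 change 0.95, edgeR adjusted p = 0.000258). Cebpd, a transcription factor of acute inflammation, had 18.7 to 36.9 CPM (median 22.05) in 5xFAD/Veh mice, against 5.56 to 12.5 CPM (median 7.92) in WT/Veh mice (log2 change 1.53, edgeR adjusted p = 1.13e-06). Among the metabolic and coupling genes Aqp4, the water channel of astrocyte endfeet, was the only one called, with 318 to 504 CPM (median 408) in 5xFAD/Veh mice, against 149.9 to 264 CPM (median 208) in WT/Veh mice (log2 change 0.97, SE 0.17, edgeR adjusted p = 0.000215). Slc1a2, Slc1a3, Glul, Gja1 and Aldh1l1, which take up glutamate, couple astrocytes or mark them, were not called. WT/Veh female 1F had the highest Gfap of its group at 669 CPM and the highest reactive astrocyte sum at 1657 CPM, both below every 5xFAD/Veh mouse.

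In the oligodendrocyte lists and in most neuronal and synaptic lists no member was called. The exceptions were the axon and neurofilament list, with 1 of 24 called higher, and the potassium channel list, with 1 of 40. In edgeR 0 of 32 genes of oligodendrocytes and myelin, 0 of 16 of their precursors, 0 of 22 of excitatory neurons, 0 of 26 of inhibitory interneurons, 0 of 34 of the presynapse, 0 of 42 of glutamate receptors and the postsynapse and 0 of 34 immediate early genes passed, with list medians of -0.072 to 0.19. The neuronal and synaptic lists without an edgeR call held 231 genes together, a pool chosen for having no call. Of these, 14 had an unadjusted p under 0.05, against 1861 of all 16723 genes tested. None of the 231 was called in DESeq2 or limma voom. Over the 46 genes of the oligodendrocyte lineage 6 had an unadjusted p under 0.05 and 0 were called in DESeq2 or limma voom. Slc17a7, the vesicular glutamate transporter of hippocampal pyramidal cells, had 1163 to 2244 CPM (median 1380.3) in 5xFAD/Veh mice, against 384 to 1738 CPM (median 956) in WT/Veh mice (log2 change 0.55, SE 0.28, edgeR adjusted p = 0.49). Bdnf, an activity-dependent neurotrophin, had 12.1 to 63.9 CPM (median 21.9) in 5xFAD/Veh mice, against 5.30 to 24.3 CPM (median 15.5) in WT/Veh mice (log2 change 0.79, SE 0.37, edgeR adjusted p = 0.4). Both overlapped widely. The range was wider in WT/Veh mice for Slc17a7 and in 5xFAD/Veh mice for Bdnf, where female 3F was highest at 63.9 CPM. In simulated data with the spread of these libraries 37.3% of the genes changed by 1.5-fold were recovered, against 68.7% at 2-fold and 86.4% at 4-fold. Among 40 potassium channel genes only Kcnk6, a background potassium channel, passed (2.5%, against 3.86% of all genes tested). Kcnk6 had 5.38 to 8.26 CPM (median 6.79) in 5xFAD/Veh mice, against 1.66 to 4.56 CPM (median 2.81) in WT/Veh mice (log2 change 1.11, edgeR adjusted p = 0.000247). The stress-induced factor Atf3, which marks injured neurons and activated macrophages, had 2.19 to 4.47 CPM (median 3.08) in 5xFAD/Veh mice, against 0.126 to 1.13 CPM (median 0.794) in WT/Veh mice (log2 change 2.08, SE 0.35, edgeR adjusted p = 5.38e-05). Mcm3, a helicase subunit of DNA replication, was the only one of 23 cell cycle genes called (log2 change 0.82, edgeR adjusted p = 0.000276). That is 4.35% of them, against 3.86% of all genes tested.

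Genes of iron and oxidative stress gave 4 higher and 1 lower call of 27. Hmox1, the haem-degrading enzyme, had 9.07 to 14.2 CPM (median 11.8) in 5xFAD/Veh mice, against 3.61 to 7.29 CPM (median 5.33) in WT/Veh mice (log2 change 1.16, edgeR adjusted p = 3.84e-05). Prdx6, an antioxidant enzyme of astrocytes, had 370.0 to 569 CPM (median 463) in 5xFAD/Veh mice, against 228 to 379.8 CPM (median 311) in WT/Veh mice (log2 change 0.58, edgeR adjusted p = 0.000474). Nfe2l2 (NRF2) and the ferritin light chain gene Ftl1 had values of 0.59 and 0.48 (edgeR adjusted p = 0.0157 and 0.0194). Heph, the ferroxidase hephaestin, was lower, with 5.27 to 9.38 CPM (median 6.42) in 5xFAD/Veh mice, against 7.52 to 18.3 CPM (median 11.1) in WT/Veh mice (log2 change -0.80, edgeR adjusted p = 0.0229). None of 40 nuclear and 13 mitochondrially encoded genes of the respiratory chain passed in edgeR, and 0 of these 53 had an unadjusted p under 0.05 or were called in DESeq2 or limma voom. All 13 mitochondrially encoded genes had a negative value. Among the vehicle mice, the share of the counts from all genes of the mitochondrial chromosome was highest in WT/Veh female 3F at 13.05%.

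Several abundant or evenly expressed genes were called with small fold changes. Ly6e, a receptor-like GPI-anchored protein, had 192 to 270.3 CPM (median 233) in 5xFAD/Veh mice, against 97.3 to 169 CPM (median 134) in WT/Veh mice (log2 change 0.76, edgeR adjusted p = 8.23e-06). Sirpa, the receptor for the CD47 signal, which both neurons and myeloid cells express, had 387 to 483 CPM (median 458) in 5xFAD/Veh mice, against 247 to 369.6 CPM (median 339) in WT/Veh mice (log2 change 0.45, edgeR adjusted p = 0.00272). Slc39a1, a zinc importer, had 53.2 to 60.1 CPM (median 58.5) in 5xFAD/Veh mice, against 29.3 to 55.9 CPM (median 38.7) in WT/Veh mice (log2 change 0.52, edgeR adjusted p = 0.000546) and, among the called higher genes over 5 CPM, the lowest coefficient of variation between 5xFAD/Veh mice (3.62%). The groups of Ly6e and Sirpa did not overlap and those of Slc39a1 did. Actb, the cytoplasmic actin gene often used as a reference, was called higher with 1218 to 1558 CPM (median 1420.2) in 5xFAD/Veh mice, against 939 to 1389 CPM (median 1127) in WT/Veh mice (log2 change 0.31, edgeR adjusted p = 0.0424), a call that 12 of 37 alternatives kept. Idh1 (log2 change 0.35, edgeR adjusted p = 0.0479) and Cyb5r3 (log2 change 0.35, edgeR adjusted p = 0.0189) were other small changes.

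The 35 lower genes changed by less and belonged to few of the lists. P4ha2, a prolyl hydroxylase of collagen, had the smallest p among them, with 2.88 to 4.91 CPM (median 3.91) in 5xFAD/Veh mice, against 4.22 to 8.81 CPM (median 7.66) in WT/Veh mice (log2 change -0.88, SE 0.18, edgeR adjusted p = 0.000847). Fzd2, a Wnt receptor, had 14.0 to 19.6 CPM (median 16.1) in 5xFAD/Veh mice, against 20.6 to 35.8 CPM (median 27.9) in WT/Veh mice (log2 change -0.73, SE 0.16, edgeR adjusted p = 0.00219), and all 8 5xFAD/Veh mice lay below all 8 WT/Veh mice. Kirrel2, a nephrin-like adhesion protein, was separated in the same way, with 2.55 to 7.28 CPM (median 5.05) in 5xFAD/Veh mice, against 7.82 to 14.1 CPM (median 10.5) in WT/Veh mice (log2 change -1.13, SE 0.25, edgeR adjusted p = 0.00241). The calls of P4ha2 and Kirrel2 were kept in 36 of 37 alternative analyses and that of Fzd2 in 34. Clock genes gave 3 of the 35, which is 13% of the 23 tested in a list chosen with earlier results known. Of all genes tested 0.209% were lower. Per2, a repressor of the clock, had 9.16 to 26.7 CPM (median 16.01) in 5xFAD/Veh mice, against 15.7 to 62.3 CPM (median 30.9) in WT/Veh mice (log2 change -1.06, SE 0.24, edgeR adjusted p = 0.00318). Cry1, its partner, had 14.7 to 27.6 CPM (median 20.6) in 5xFAD/Veh mice, against 23.2 to 40.1 CPM (median 32.2) in WT/Veh mice (log2 change -0.57, edgeR adjusted p = 0.00612). Hlf, a PAR bZIP output factor, had 194 to 273 CPM (median 226) in 5xFAD/Veh mice, against 249.2 to 431 CPM (median 323) in WT/Veh mice (log2 change -0.51, edgeR adjusted p = 0.0255). The groups overlapped in all 3 of these genes. Of 37 alternatives 35 kept the call of Per2, 32 that of Cry1 and 25 that of Hlf. The other 20 clock genes, among them Arntl, Clock, Per1 and Dbp, did not pass, and the time of day at which the mice were killed is not given in the sources used here. Dstyk, a dual-specificity kinase, had 58.3 to 79.4 CPM (median 69.2) in 5xFAD/Veh mice, against 75.5 to 95.8 CPM (median 85.5) in WT/Veh mice (log2 change -0.29, edgeR adjusted p = 0.00774). Pthlh, the parathyroid hormone-like hormone, had 0.722 to 2.10 CPM (median 1.65) in 5xFAD/Veh mice, against 1.52 to 5.89 CPM (median 3.19) in WT/Veh mice (log2 change -1.08, edgeR adjusted p = 0.0132). The largest decreases were at low level. Entpd4b, a copy of a Golgi nucleotidase gene that may share reads with Entpd4, had 1.75 to 5.02 CPM (median 1.90) in 5xFAD/Veh mice, against 3.61 to 27.3 CPM (median 10.8) in WT/Veh mice (log2 change -2.38, edgeR adjusted p = 0.0103). Sec14l4 had 0 to 0.536 CPM (median 0.171) in 5xFAD/Veh mice, against 0.401 to 2.25 CPM (median 0.606) in WT/Veh mice (log2 change -2.14, edgeR adjusted p = 0.0108). Col26a1, a collagen gene, had 0 to 0.530 CPM (median 0.231) in 5xFAD/Veh mice, against 0.729 to 1.82 CPM (median 0.899) in WT/Veh mice (log2 change -2.16, edgeR adjusted p = 0.0377). Of these genes Col26a1 was the one without overlap, but only 18 of 35 alternatives kept its call. The call of Sec14l4 was kept in 25 of 34 and that of Entpd4b in 33 of 36. Frem3 had 0.318 to 1.87 CPM (median 0.840) in 5xFAD/Veh mice, against 0.0854 to 8.57 CPM (median 3.76) in WT/Veh mice (log2 change -1.95, edgeR adjusted p = 0.0436). Ryr1, a calcium release channel, had 1.69 to 6.96 CPM (median 3.82) in 5xFAD/Veh mice, against 3.69 to 22.2 CPM (median 7.35) in WT/Veh mice (log2 change -1.27, edgeR adjusted p = 0.0255). The less well annotated genes AI464131 and Gm42303 had log2 fold changes of -0.60 and -2.07. The call of Ryr1 was kept in 25 of 36 alternatives, that of AI464131 in 35 of 37 and that of Gm42303 in 20 of 35. Ppara, Cth, Irs2, Sik2, Ppp1r3g and Mfn1 were among the others. The call of Ppara was kept in 28 of 36 alternatives, and of 37 alternatives 23 kept that of Ppp1r3g, 20 each those of Irs2 and Sik2, 17 that of Cth and 14 that of Mfn1.

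The number of lower calls moved in both directions when libraries were left out. With 1 mouse left out it was 16 to 55, and 13 to 31 of the 35 were among them. Without WT/Veh mouse 1M, which had the highest striatum sum, 16 genes were lower and 13 of the 35 were among them, and without 3M, which had the highest thalamus sum, 20 were lower and 17 of the 35 were among them. Without 5xFAD/Veh mouse 4M 20 were lower as well, 18 of them among the 35. Without WT/Veh mouse 1F 55 genes were lower, of which 29 were among the 35, and without 4M 46, of which 31 were. Without WT/Veh 2M, 3F, 3M and 4M together 81 genes were lower, and 14 of the 35 were among them. Without WT/Veh 1M, 3F and 3M together 6 genes were lower and 4 of the 35 were among them, while 495 genes were higher, of which 474 belonged to the 611. With the striatum score as a covariate the lower genes were 18, of which 16 belonged to the 35, and with the choroid plexus and thalamus scores 38, of which 24 did. All 35 kept a negative value in each of these fits, and all 611 a positive one. Ttr, the most abundant choroid plexus gene, had 17.6 to 687 CPM (median 123) in 5xFAD/Veh mice, against 25.1 to 2691 CPM (median 222) in WT/Veh mice (log2 change -1.89, SE 1.11, edgeR adjusted p = 0.579). Prkcd, a thalamus marker, had 12.9 to 72.3 CPM (median 38.6) in 5xFAD/Veh mice, against 12.6 to 243 CPM (median 49.5) in WT/Veh mice (log2 change -0.99, SE 0.64, edgeR adjusted p = 0.644). The part of such tissue in the lower calls was not tested beyond these fits.

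The sexes were examined in a model with 8 groups. In females 431 genes passed (408 higher and 23 lower, 2.58% of those tested, of which 2.44% higher) and in males 413 (357 higher and 56 lower, 2.47%), and 265 passed in both. All 646 genes had the same sign in females and in males, which both enter the comparison that chose them, and the median of the 611 was 1.29 in females and 1.27 in males. A difference between the sexes was called for 0 genes in edgeR, where 1565 genes had an unadjusted p under 0.05, for 0 genes in limma voom and for 22 in DESeq2. Spp1 had 4.26 in females and 2.05 in males on the log2 scale, Gfap 2.49 and 3.34, and Lyz2 0.78 and 3.28. The GTPase list had a median of 2.39 in females, which include mouse 1F, and 1.49 in males, with 11 and 5 genes called. The thalamus and striatum lists had medians of -0.28 and -0.11 in females and of -1.28 and -1.33 in males. The difference between the sexes was not tested for the lists.

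**Figure D5:**
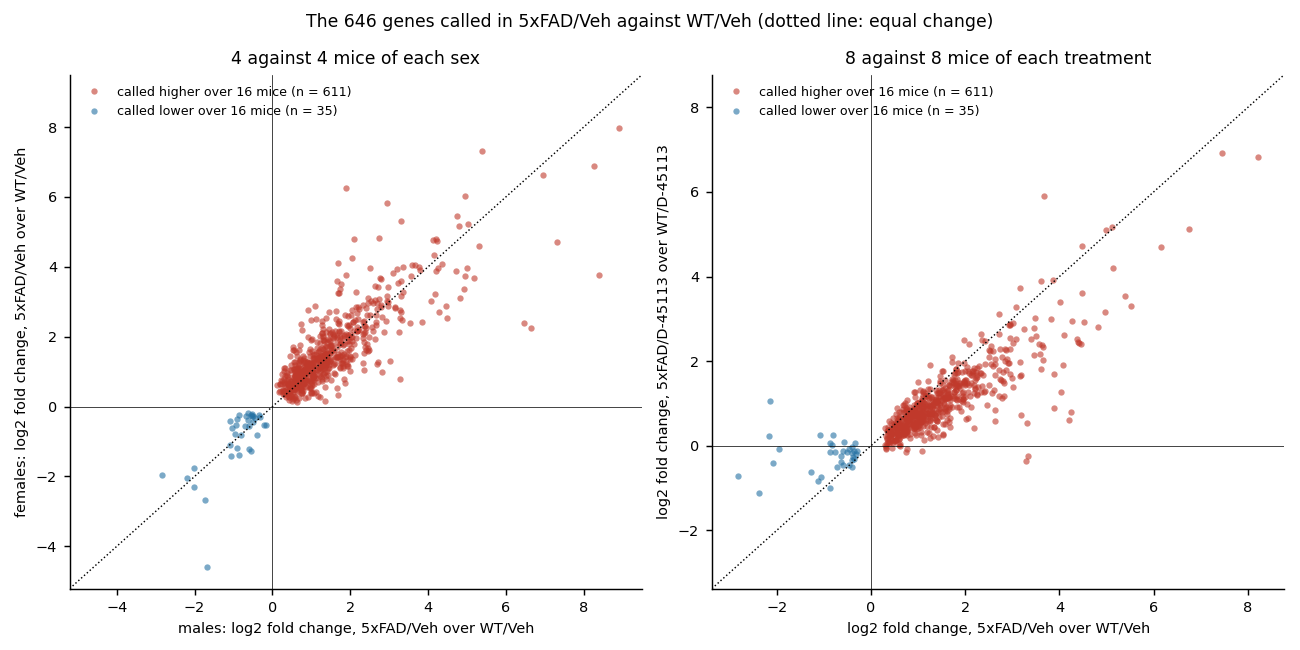
Log2 fold changes of the 646 called genes, females against males (left) and 5xFAD/D-45113 over WT/D-45113 against 5xFAD/Veh over WT/Veh (right), with higher genes in red, lower genes in blue and a dotted line of equal change. All 646 points on the left lie in the quadrants of like sign, and on the right 535 of the 611 red points lie below the line.

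The same contrast of genotype among the 16 D-45113 mice used no library of the vehicle groups for its means. There 847 genes passed (622 higher, 3.72%, and 225 lower, 1.35%, or 5.06% together). Of the 611 genes higher under vehicle 601 had a positive value and 406 were called higher, and of the 35 lower genes 27 had a negative value and 4 were called lower. The 410 shared calls were 63.5% of the vehicle calls and 48.4% of the D-45113 calls. The median of the 611 was 0.90 under D-45113, against 1.29 under vehicle, and 535 of them had the smaller value under D-45113. The 611 were chosen by their value under vehicle, so this count is a description. The difference between the contrasts was called for 0 genes in edgeR (1591 at an unadjusted p under 0.05), 0 in limma voom and 14 in DESeq2. For Cst7 the log2 fold change was 6.91 under D-45113 and 7.44 under vehicle, for Trem2 2.26 and 2.50, for Gfap 2.05 and 2.88, and for Ccl4 5.90 and 3.67. For Gbp2 it was 0.59 under D-45113 and 2.63 under vehicle, and for Ch25h 0.90 and 3.88. The GTPase list had 3 genes called higher and a median of 0.62 under D-45113, against 13 and 2.12 under vehicle, and the plaque-associated list 24 and 1.504, against 25 and 2.13. Choroid plexus and thalamus markers had medians of 0.36 and 0.51 under D-45113, of the opposite sign to vehicle.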

How the data were processed

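Hippocampal RNA from 32 mice was sequenced, and libraries and mapping were made by a service company. The authors deposited a table of read counts per gene (not normalized) and one of FPKM, which the authors had scaled by depth and gene length. The build was mm10 (submitters' processing notes), and no aligner or counter is named in the sources used. Groups came from the sample labels. Counts were tested with edgeR 4.0.16 (R 4.3.3) by quasi-likelihood in 1 model of 4 groups on 32 libraries, after TMM scaling and a filter on low counts (filterByExpr), with Benjamini-Hochberg adjustment over 16723 genes at 0.05. The sexes used a model of 8 groups. Alternatives, given at the end, included limma 3.58.1, DESeq2 1.42.0, FPKM with pseudocounts of 1 and 0.1, other filters, a replicate block and libraries left out. Sums over marker lists served as covariates, and the fits without several WT/Veh mice or with the striatum score were added after seeing the data. Python 3.11.15 and matplotlib 3.10.9 made the figures. The procedure was tested on simulated counts, where 4 of 16523 unchanged genes were called.

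Named genes were the 10 smallest p in each direction, the 5 largest changes with a mean of at least 1 CPM, the 10 most abundant called, up to 3 per list, the 3 highest and 3 lowest coefficients of variation among higher genes of at least 5 CPM, the 5 smallest p for each interaction, and Thy1 and App. Some genes that the rule takes are not reported here. Other genes were named after their values were seen, and the members and lists were chosen with earlier results of these data known. No pair of libraries agreed within sampling noise (lowest chi-square per degree of freedom 27.6). Replicates are separate mice.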

Additional observations from a re-analysis of the deposited data

Results flagged for a closer look

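In 50 of 432 groups of 8 mice (genes and list sums named in the report), 1 mouse lay apart from the other 7 by more than Dixon's 95% critical value for the ratio of its gap to the range. For normally distributed values chance alone gives about 1 in 20 such groups, or 21.6 here. The ratio was taken on CPM, which need not be normal, above all at low levels. Atp6v0d2 in WT/Veh mice had a ratio of 1 from 1 read. Some genes were also named for a high coefficient of variation, and values of related genes are not independent. The count of 50 is therefore a description and cannot be read as an excess over chance. Of the 50, 31 were in 5xFAD/Veh mice and 19 in WT/Veh mice. No explanation of these values was tested.

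5xFAD/Veh female 1F was highest in several interferon genes. It had 87.9 CPM of Irgm1 (others up to 42.4), 97.0 CPM of Gbp2 (up to 28.9), 36.5 CPM of Irgm2 (up to 21.8), 42.5 CPM of Iigp1 (up to 10.9), 61.7 CPM of Igtp (up to 20.1), 37.7 CPM of Tap1 (up to 19.6) and 16.8 CPM of Tap2 (up to 13.4). Its GTPase sum was 474 CPM (103 to 174 in the others) and its Hcar2 level 8.47 CPM (up to 4.57), while its Mfn1 level was the lowest at 29.4 CPM (39.6 to 46.5 in the others). 5xFAD/Veh male 2M was highest in MHC class II genes, with 367 CPM of Cd74 (others up to 127), 81.1 CPM of H2-Ab1 (up to 34.0), 81.6 CPM of H2-Eb1 (up to 28.2), 116 CPM of H2-Aa (up to 45.2), 5.54 CPM of the chemokine Cxcl9 (up to 2.13) and a class II sum of 1343 CPM (497 to 768 in the others).

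Single genes set other 5xFAD/Veh mice apart. Male 3M had 95.4 CPM of Cst7 (others 26.8 to 53.4) and 69.2 CPM of Tyrobp (18.4 to 37.4). Female 3F had 458 CPM of Serpina3n (154 to 266), 63.9 CPM of Bdnf (12.1 to 35.3), 26.3 CPM of Sik2 (12.9 to 17.8), an immediate early gene sum of 2438 CPM (1320 to 1832 in the others) and a neuropeptide sum of 7266 CPM (5237 to 6167). Male 4M had 36.9 CPM of Cebpd (18.7 to 26.0), 2244 CPM of Slc17a7 (1163 to 1675) and a meninges sum of 696 CPM (306 to 474). Male 1M had 53.2 CPM of Slc39a1, below 58.2 to 60.1 CPM in the others, and 0.536 CPM of Sec14l4 (0 to 0.244). Female 4F had 3.73 CPM of Ccl5 (0.706 to 2.05) and 35.9 CPM of C3ar1 (19.5 to 24.6), and female 2F 5.02 CPM of Entpd4b (1.75 to 3.14).

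Among WT/Veh mice, male 2M was highest in the interferon genes Irgm2 (9.26 CPM, others up to 6.75), Iigp1 (3.38 CPM, up to 1.72), Igtp (7.51 CPM, up to 4.74) and Cxcl10 (3.88 CPM, up to 1.59). Female 1F had 669 CPM of Gfap (202 to 367), a reactive astrocyte sum of 1657 CPM (1042 to 1195), 5.18 CPM of Ptprc (up to 2.99), 0.292 CPM of Ly6c2 (up to 0.125) and 0.0365 CPM of Atp6v0d2, a single read, where the others had 0. Female 2F had 4.42 CPM of Trim30a (up to 2.77), 2.49 CPM of Casp1 (up to 0.994), 0.387 CPM of Cxcl9 (up to 0.0427) and the lowest Axl level, 54.2 CPM (73.3 to 88.3). Male 1M had 94.4 CPM of Grn (63.0 to 75.1) and 0.606 CPM of Pdcd1 (up to 0.255). Female 3F had 59.7 CPM of Mpeg1 (33.8 to 45.8), male 3M 0.199 CPM of Cd200r4 (up to 0.0427) and 0.464 CPM of Hcar2 (up to 0.213), and male 4M 0.461 CPM of Cd8a (up to 0.172).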

How the results depend on the processing

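The number of genes called between 5xFAD/Veh and WT/Veh mice, 646, was 602 to 746 under other scaling, filters, tools, covariates of sex or the vehicle libraries alone (RLE size factors 629, DESeq2 746, limma voom 707, likelihood ratio test 721, no filter 602), and 664 with limma on log2(FPKM + 1). It was 456 with FPKM means of at least 1, 431 in females, 413 in males and 412 with an absolute log2 fold change over 1. Leaving out 1 mouse at a time gave 583 (without 5xFAD/Veh 4F) to 680 (without WT/Veh 1F). The count fits on all genes kept the sign of all 646. The replicate block, with the mouse label (1F to 4M) as a term, gave 675 calls, of which 592 higher and 31 lower were shared. Deviations of mice with the same label had correlations of 0.0151 to 0.249. Of the 8 correlations 2 were over 0.1, and 4 of 8 mice were closest to their own label. No reference for unpaired labels was computed, so these values do not decide whether the labels pair the mice. In the D-45113 groups 847 calls became 941 with the block and 510 with the D-45113 libraries alone. Within males 413 calls became 646 in DESeq2 and 294 to 456 with 1 mouse left out, and within females 431 became 309 to 444. The sex interaction gave 0 calls, 22 in DESeq2 and 0 to 1 with 1 mouse left out (1 without WT/Veh 3F). The treatment interaction gave 0, and 14 in DESeq2.

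Among the named genes, those that were called kept their sign in all alternatives. Of the uncalled genes App, near 0, and Prkcd changed sign. App, at -0.017, had 0.18 in females, 0.034 with choroid plexus and thalamus covariates, 0.056 with striatum as well, 0.011 with striatum alone, 0.023 without WT/Veh 1M, 3F and 3M, 0.029 without 2M and 3M, and -0.066 to 0.037 with 1 mouse left out. Prkcd, a thalamus marker at -0.99, had 0.60 with choroid plexus and thalamus covariates, 0.57 with striatum as well and 0.32 without WT/Veh 2M, 3F, 3M and 4M. The calls least often kept were those of Tmem119 (10 of 37 alternatives), Ms4a6c (11 of 35), Actb (12 of 37), Idh1 and Mfn1 (14 of 37 each) and Frem3 (14 of 36). With the longer response element core the share of higher genes with a match was 4.30%. In the 150 bases before the start the shorter core was found in 7.10% of higher genes, against 1.65% of genes tested. Depth limits low genes, and counting intervals and floors cover counting error only.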
